A study of Mus musculus with 63 samples.

Results

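The genes described here are the 4 ErbB receptors (Egfr, Erbb2, Erbb3 and Erbb4) and the 4 neuregulins (Nrg1, Nrg2, Nrg3 and Nrg4), 8 of the 56980 genes listed in each count table, chosen by their symbols. ErbB receptors are receptor tyrosine kinases of the cell surface that signal as pairs after a ligand of the EGF family binds. Erbb2 has no known ligand of its own and Erbb3 has an impaired kinase, so both act mainly in pairs with another ErbB receptor. Neuregulins are ligands of Erbb4 and some of them also of Erbb3, whereas Egfr binds EGF, TGF-alpha, HB-EGF and related ligands. In the brain this signalling is best known from interneurons, which express Erbb4, from the oligodendrocyte lineage, which expresses Erbb3, and from glial progenitors and astrocytes, which express Egfr.

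Total RNA was sequenced from 4 populations of cells sorted from the cortex of adult female C57BL/6J mice, some weeks after a thermal burn of 7 to 8% of the body surface or a sham injury (shaved, not burned). All mice, sham mice included, had been injected in the motor cortex with an AAV carrying eGFP under the CaMKII promoter and an AAV carrying mRuby2 under the mDlx enhancer, and had received analgesia, of which some burn mice were given more. CaMKII positive cells (eGFP, labelled excitatory neurons) and CaMKII-mDlx double-positive cells (labelled inhibitory neurons) were sorted from the motor cortex, and ACSA2 positive astrocytes and CD11b positive microglia from cortex caudal to it. The comparison used 58 of 63 libraries: 4 burn and 6 sham CaMKII positive, 9 and 7 double-positive, 9 and 8 astrocyte, and 8 and 7 microglia libraries. Left out were the 4 libraries of burn mouse 3, which had skin ulcers, and 1 double-positive library (sham mouse 8, 331215 counts).

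The 58 libraries held 13346143 to 134703744 counts, and came from 3 sequencing batches. The marker genes went against the labels of both motor cortex populations, so these are called here by their sort. In the CaMKII positive libraries the astrocyte glutamate transporter Slc1a2 was at 11230 ± 2232 CPM (counts per 1000000 counts of the library; SD, n = 10) and the endothelial claudin Cldn5 at 571 ± 254 CPM, against 12.4 ± 11.2 CPM for the excitatory neuron marker Slc17a7. In the double-positive libraries the microglial receptor Csf1r was at 5777 ± 1337 CPM (SD, n = 16) and the GABA-synthesising enzyme Gad1 at 0.724 ± 0.545 CPM. The astrocyte libraries held Slc1a2 at 23040 ± 3172 CPM (SD, n = 17) and the microglia libraries Csf1r at 7509 ± 1263 CPM (SD, n = 15), as labelled. These libraries are bulk samples, so fewer cells of a type and less RNA per cell cannot be told apart.

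The levels by population were known when the genes were listed, so they are given as a description with no test. Egfr (ENSMUSG00000020122, chromosome 11) was the most abundant member. It was at 383 ± 44.8 CPM in the astrocyte libraries (SD, n = 17; lowest 299, highest 439), 229.7 ± 60.7 CPM in the CaMKII positive libraries (n = 10; 127 to 336), 7.81 ± 6.07 CPM in the double-positive libraries (n = 16; 2.19 to 28.2) and 2.46 ± 1.71 CPM in the microglia libraries (n = 15; 0.597 to 6.32). The astrocyte and CaMKII positive means lay further apart than the sum of their SDs although their ranges overlapped, and both stood clear of the other populations. The double-positive and microglia means did not differ beyond their spread. In mice with both libraries, Egfr was higher in the astrocyte than in the CaMKII positive library in 10 of 10, and higher in the double-positive than in the microglia library in 13 of 14, with a median ratio of 2.9. Egfr was also lower in the double-positive libraries of batch 3 (2.19 to 8.54 CPM, n = 10) than in those of batch 1 (7.89 to 28.2 CPM, n = 3, all burn).

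Erbb2 (ENSMUSG00000062312, chromosome 11), the partner receptor with no ligand of its own, did not differ beyond its spread between the astrocyte libraries (38.8 ± 5.06 CPM; 29.1 to 44.7) and the CaMKII positive libraries (36.9 ± 4.63 CPM; 31.4 to 47.0). It fell to 1.07 ± 1.25 CPM in the double-positive libraries and 0.219 ± 0.396 CPM in the microglia libraries, of which 10 of 15 had no count. A library with no count may still have a level of as much as 3 counts, which is 0.0547 to 0.181 CPM here and covers counting error only.

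Erbb3 (ENSMUSG00000018166, chromosome 10), the kinase-impaired receptor of the oligodendrocyte lineage, had another order. It was at 13.9 ± 3.57 CPM in the CaMKII positive libraries (8.92 to 19.8), and its range there did not meet that of the astrocyte libraries, 1.3 ± 1.07 CPM (0 to 4.45). The same-mouse ratio was above 1 in 10 of 10 mice, with a median of 9.36 over the 8 mice with counts in both. The double-positive (0.696 ± 1.88 CPM) and microglia (0.619 ± 0.443 CPM) libraries did not differ from the astrocyte libraries beyond their spread. Within the same mouse, the astrocyte library was higher than the microglia library in 12 of 15 mice and lower in 2. It was higher than the double-positive library in 12 of 16 mice and lower in 3. Markers of several other cells were also higher in the CaMKII positive than in the astrocyte libraries. The summed CPM of 6 oligodendrocyte precursor genes in the CaMKII positive libraries was 366% of that in the astrocyte libraries, and that of 8 oligodendrocyte genes was 367%. Other lists were higher there by more, with endothelial genes at 813%, microglia genes at 1220% and border macrophage or monocyte genes at 4960%. Their part in the level of Erbb3 was not tested.

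Erbb4 (ENSMUSG00000062209, chromosome 1), the neuregulin receptor known from interneurons, was at 19.0 ± 18.4 CPM in the astrocyte libraries (7.34 to 74.4; median 11.5) and 12.8 ± 4.83 CPM in the CaMKII positive libraries (5.56 to 21.4), and these did not differ beyond their spread. It was at 0.643 ± 1.1 CPM in the double-positive libraries, whose label is inhibitory neurons, and at 0.483 ± 0.479 CPM in the microglia libraries. The inhibitory neuron genes Gad1, Gad2 and Slc32a1 were also at means under 1 CPM in the double-positive libraries.

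Nrg1 (ENSMUSG00000062991, chromosome 8) had the highest mean of the neuregulins in the astrocyte and CaMKII positive libraries. It was at 19.4 ± 7.49 CPM in the astrocyte libraries (9.06 to 37.4) and 12.1 ± 6.47 CPM in the CaMKII positive libraries (3.3 to 23.7), which did not differ beyond their spread. Within the same mouse, the astrocyte library was higher in 8 of 10 and the CaMKII positive library in 2, with a median ratio of CaMKII positive over astrocyte of 0.505. Nrg1 was at 0.45 ± 0.586 CPM in the double-positive and 0.393 ± 0.841 CPM in the microglia libraries. Nrg2 (ENSMUSG00000060275, chromosome 18) was at 2.19 ± 1.64 CPM in the astrocyte, 1.84 ± 1.74 CPM in the CaMKII positive, 0.444 ± 0.562 CPM in the microglia and 0.198 ± 0.223 CPM in the double-positive libraries, and no neighbours in that order differed beyond their spread. Nrg3 (ENSMUSG00000041014, chromosome 14) was at 1.09 ± 0.722 CPM in the CaMKII positive libraries and under 0.5 CPM on average in the others. Nrg4 (ENSMUSG00000032311, chromosome 9) was at or near 0: its highest value in any library used was 1.28 CPM, in the CaMKII positive library of sham mouse 16, and 45 of the 58 libraries had no count of it.

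**Figure D1:**
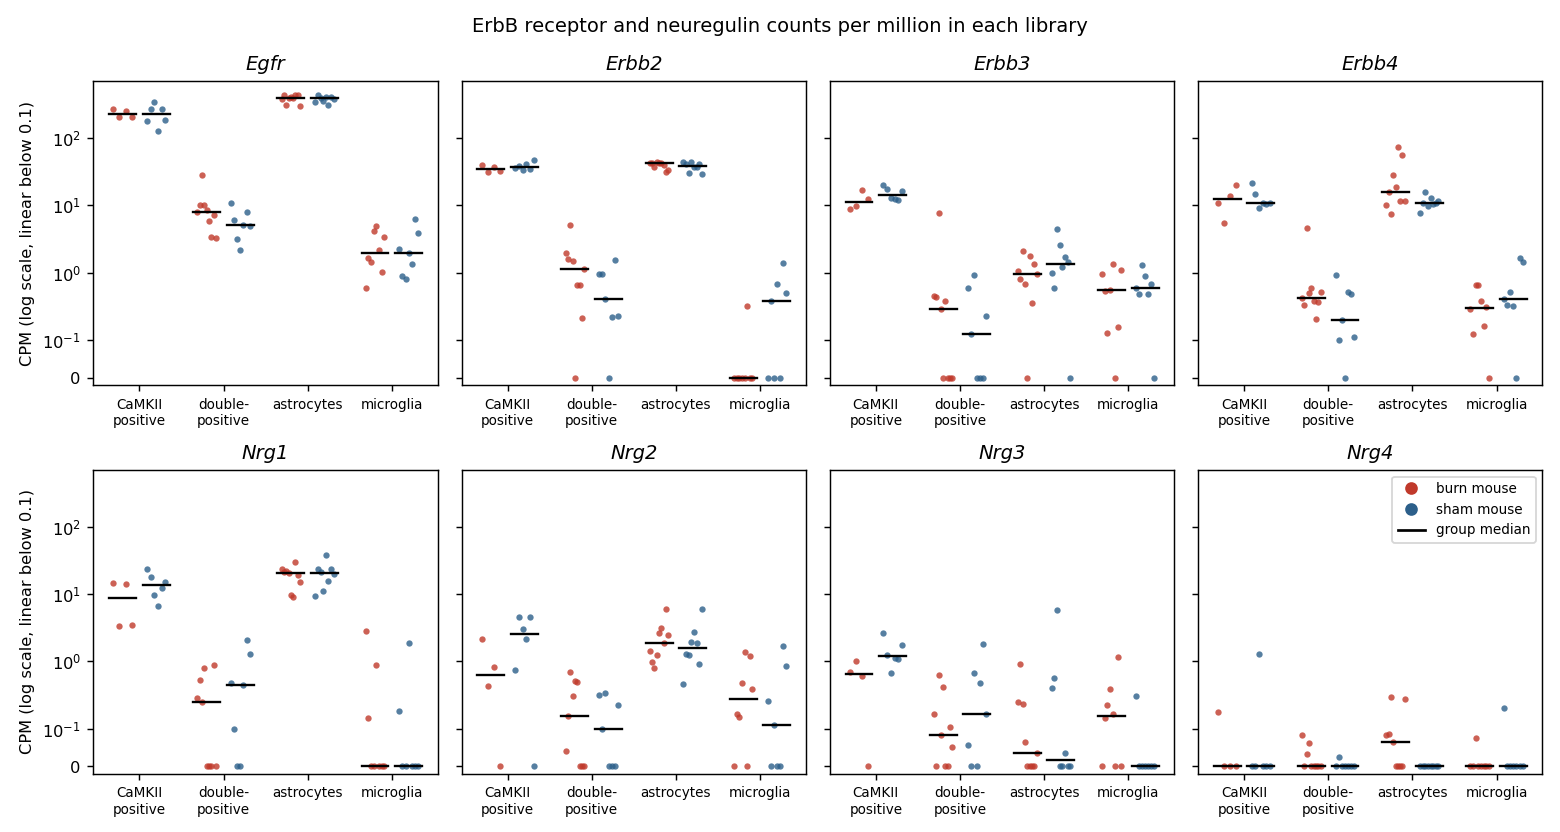
CPM (y axis, logarithmic above 0.1 and linear below) of each member in every library used, by sorted population (x axis). Red points are burn mice, blue points sham mice and black lines group medians. Egfr and Erbb2 stand high in the astrocyte and CaMKII positive libraries, Erbb3 in the CaMKII positive libraries, and the ranges of burn and sham mice overlap in all 32 pairs of member and population.

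Levels of different genes were compared per kilobase of exon. Per kilobase, Egfr made up 78.6 ± 3.12% of the summed receptor level in the astrocyte libraries, 65.1 ± 7.92% in the CaMKII positive libraries and 72.1 ± 15.0% in the double-positive libraries, and it was the highest receptor in every library of these 3 populations. In the microglia libraries it was the highest in 12 of 15. Erbb2 came next, with 17.4 ± 2.5% in the astrocyte libraries and 23.7 ± 5.57% in the CaMKII positive libraries. Erbb4 made up 3.42 ± 2.96% and 3.46 ± 1.52% in these populations, and Erbb3 0.517 ± 0.433% and 7.7 ± 2.27%. Among the neuregulins, Nrg1 made up 70.9 ± 14.6% of the summed level in the astrocyte libraries and 63.9 ± 20.6% in the CaMKII positive libraries, with most of the rest from Nrg2.

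The members were also set beside the markers of astrocytes, as a share of the level in the astrocyte libraries. The 9 astrocyte genes together were at 2.2% of that level in the double-positive libraries. There, Egfr was at 2.04%, Erbb2 at 2.76%, Erbb4 at 3.39% and Nrg1 at 2.31%, whereas Nrg2 was at 9.05%, Nrg4 at 26.5% (7 counts in all), Erbb3 at 53.6% and Nrg3 at 59.5%. Single libraries set some of these shares. Without double-positive burn mouse 10, Erbb3 was at 17.7%, Erbb2 at 2.06%, Erbb4 at 1.97% and Egfr at 1.68%. Without double-positive sham mouse 18, Nrg1 was at 1.75%. All of these but Erbb3 lay below the 2.2% of the astrocyte genes, which was taken over all libraries used. Nrg3 was at 185% without astrocyte sham mouse 13 and at 38.8% without double-positive sham mouse 18, and Nrg4 at 16.6% without double-positive burn mouse 2. In the microglia libraries the 9 astrocyte genes were at 0.621%, with Egfr at 0.644% and Erbb2 at 0.564%. Erbb4 (2.55%) and Nrg1 (2.02%) were higher there than the astrocyte genes, and Nrg2 was at 20.3%, Nrg3 at 33.0%, Nrg4 at 38.8% (14 counts in all) and Erbb3 at 47.7%. Without burn mouse 2 Nrg1 was at 1.14%, and without sham mouse 18 Erbb2 was at 0.347%. Nrg3 was at 18.2% without microglia burn mouse 23 and at 103% without astrocyte sham mouse 13, and Nrg4 at 11.4% without microglia sham mouse 8. The part of astrocyte RNA in these levels was not tested.

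**Figure D2:**
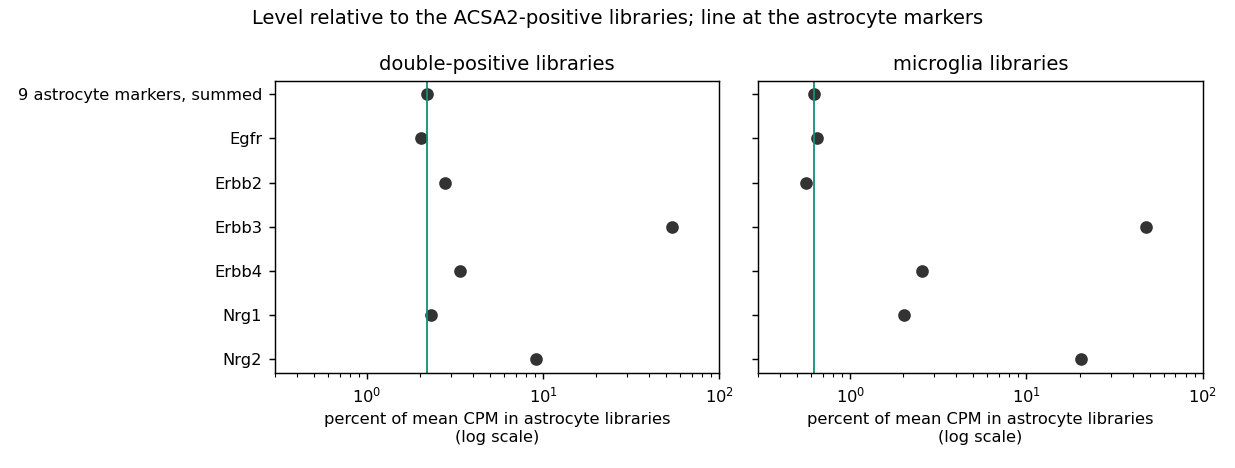
Mean level of 6 members and of the sum of 9 astrocyte markers in the double-positive and microglia libraries, as percent of the mean CPM in the astrocyte libraries (x axis, logarithmic). The green line is drawn at the astrocyte markers, 2.2% and 0.621%. Egfr and Erbb2 lie close to the line in both panels, and Erbb3 lies far to the right of it.

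The other EGF family ligands, which bind Egfr or Erbb4, were spread in another way. Tgfa, the gene of TGF-alpha, was at 24.2 ± 3.25 CPM per kilobase in the microglia libraries and 22.4 ± 3.35 in the double-positive libraries, against 12.9 ± 3.07 in the CaMKII positive and 10.8 ± 2.98 in the astrocyte libraries. In the microglia libraries this stood beside 0.218 ± 0.151 CPM per kilobase of Egfr. Hbegf, the gene of HB-EGF, was at 9.76 ± 4.67 CPM per kilobase in the double-positive, 9.76 ± 1.7 in the astrocyte, 10.0 ± 2.18 in the CaMKII positive and 6.42 ± 2.77 in the microglia libraries. Egf was between 0.295 and 0.442 CPM per kilobase on average in all 4 populations. Areg, Btc, Ereg and Epgn had means under 1 CPM in every population, and Ereg had counts in 1 library, a CaMKII positive one.

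**Figure D3:**
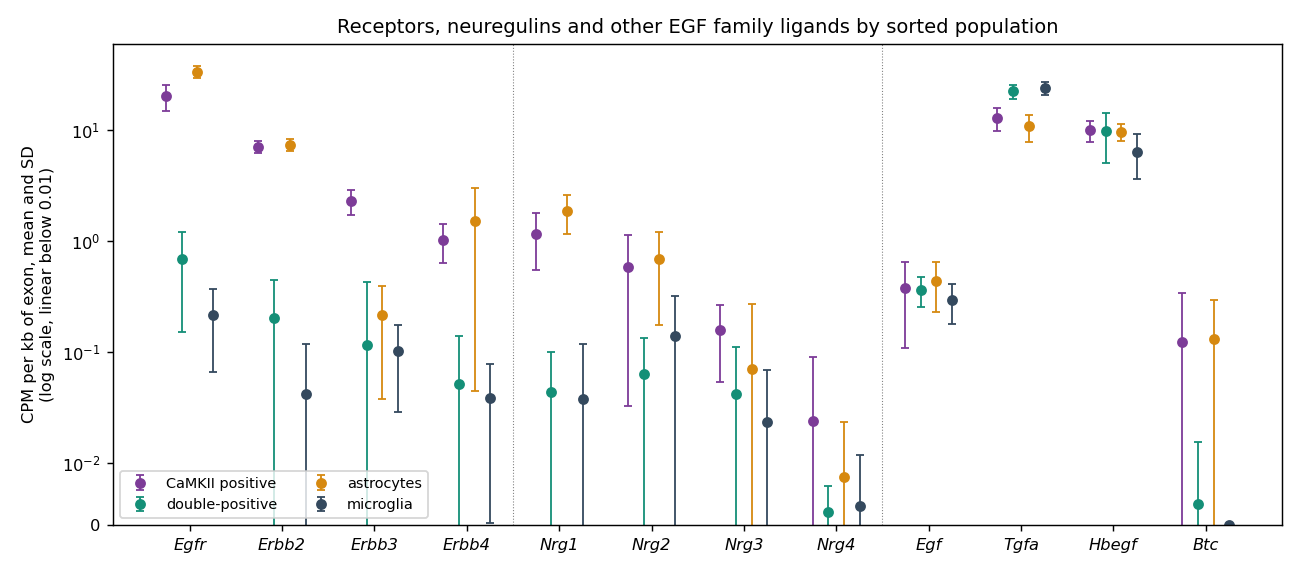
Mean and SD of CPM per kilobase of exon (y axis, logarithmic above 0.01 and linear below) of the receptors, the neuregulins and 4 other EGF family ligands in the 4 sorted populations. Egfr, Erbb2 and Erbb4 are highest in the CaMKII positive and astrocyte libraries, and Erbb3 in the CaMKII positive libraries alone. Tgfa is highest in the microglia and double-positive libraries.

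Of the genes that cut or carry the signal, the highest of each list are named. Adam10, a protease that sheds EGF family ligands, was at 77.1 CPM per kilobase in the microglia and 64.9 in the double-positive libraries, where Adam17, another such protease, came next at 36.3 and 33.0. It was at 48.4 in the CaMKII positive and 23.2 in the astrocyte libraries. Among adaptors and effectors, the adaptor Grb2 led in the microglia libraries (66.0 CPM per kilobase, then the kinase Mapk3 at 57.7) and in the double-positive libraries (59.1, then the PI3-kinase subunit Pik3r1 at 50.6). The kinases Akt2 (53.8) and Src (53.6) led in the astrocyte libraries, and Mapk3 (53.5) and Akt2 (48.0) in the CaMKII positive libraries. Of the negative regulators, Dusp6, a phosphatase of ERK, was at 247 CPM per kilobase in the microglia and 239 in the double-positive libraries, ahead of the ubiquitin ligase Cbl (41.7) in the former and the Egfr inhibitor Errfi1 (41.2) in the latter. In the astrocyte libraries Spry2, an inhibitor of receptor tyrosine kinase signalling, led with 92.6, followed by Lrig1, an inhibitor of ErbB receptors, with 65.3. In the CaMKII positive libraries Dusp6 (66.6) and Spry2 (58.5) led.

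To ask whether the burn changed these genes, burn and sham mice were compared in each population. No member was called in any of 31 tests (edgeR quasi-likelihood test with batch as a covariate, adjusted over all genes, with calls at p up to 0.05 and a fold of 1 or more on the log2 scale), and the lowest adjusted p was 0.458. Nrg4 was too low to be tested in the double-positive libraries. No gene was called in any population by this test (0.0% of 28107 genes in CaMKII positive, 26707 in double-positive, 27930 in astrocyte and 26079 in microglia libraries), whereas DESeq2 called 3, 2, 27 and 80 genes and no member. At an unadjusted p under 0.05, 1096 (3.9%), 1872 (7.01%), 2984 (10.7%) and 2036 (7.81%) genes passed, and among the members 0 of 8, 0 of 7, 2 of 8 and 0 of 8. The 2 were Erbb4 and Nrg4 in the astrocyte libraries. Nrg4 had 3 to 10 counts in 5 of 9 burn mice and none in 8 sham mice (unadjusted p = 0.0109, adjusted p = 0.458, edgeR), and no fold is given at these counts. The CPM ranges of burn and sham mice overlapped for every member in every population, and failed to overlap for 0.37%, 0.0%, 0.0143% and 0.0153% of all genes. Since burn and sham levels were known when the genes were listed, these values are a description.

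**Figure D4:**
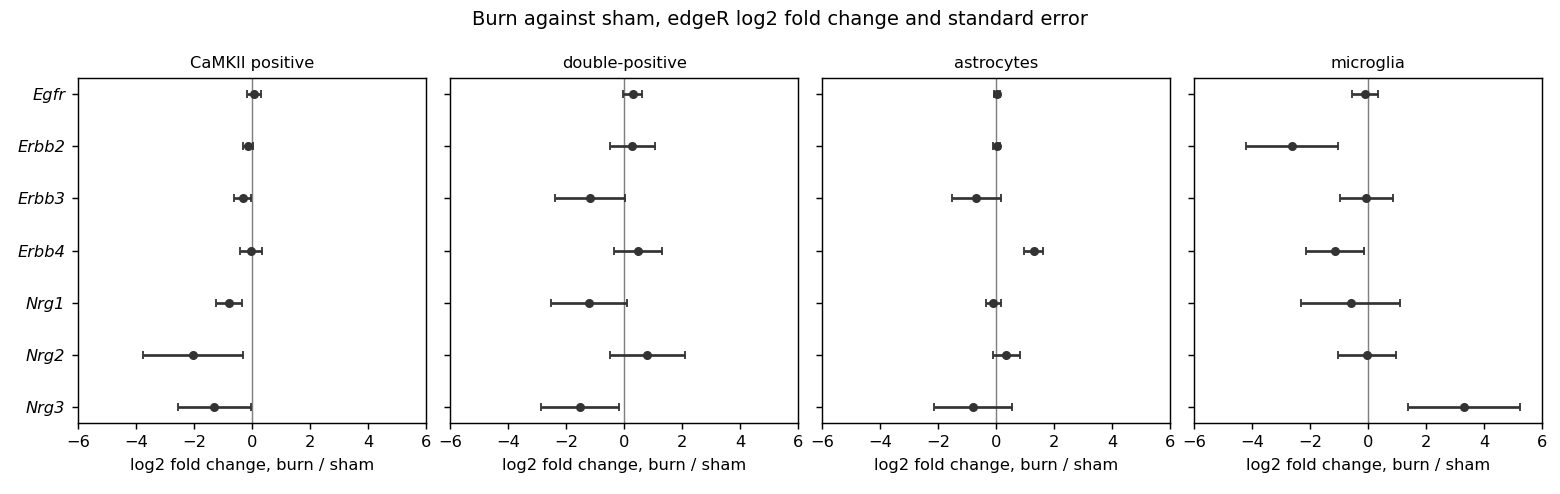
Log2 fold change of burn over sham (x axis) with its standard error from edgeR for 7 members in the 4 populations. Nrg4 is not drawn because its counts are at or near 0. The bars of Egfr and Erbb2 in the astrocyte libraries are the shortest, and Erbb4 in the astrocyte libraries lies to the right of 0 at 1.3.

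The precision differed between members. In the astrocyte libraries the 9 burn mice had Egfr at 386 ± 51.9 CPM and the 8 sham mice at 379 ± 38.5 CPM, a log2FC of 0.03 (SE 0.10), and Erbb2 had a log2FC of 0.01 (SE 0.11). In the CaMKII positive libraries the 4 burn mice had Egfr at 203, 205, 254 and 273 CPM and the 6 sham mice at 127 to 336 CPM, with a log2FC of 0.06 (SE 0.24). Nrg1 in these libraries was at 3.3, 3.51, 14.2 and 14.7 CPM in the burn mice and 6.7 to 23.7 CPM in the sham mice, so that 2 burn mice lay below every sham mouse and 2 within their range. Its log2FC was -0.81 (SE 0.45; adjusted p = 1.0, edgeR), and it was -1.52 without burn mouse 22 and -0.54 without burn mouse 20. In the same libraries Erbb3 had a log2FC of -0.32 (SE 0.30) and Erbb4 of -0.03 (SE 0.37). That of Erbb3 was -0.10 in batch 3 alone and -0.49 with all deposited libraries, and ran from -0.52 to -0.11 across fits that each omitted 1 mouse. Nrg2 and Nrg3 had standard errors above 1 there, so that changes of several-fold were not detectable at these counts.

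The member with the smallest p was Erbb4 in the astrocyte libraries. The 8 sham mice had 7.63 to 15.8 CPM (median 10.8) and the 9 burn mice 7.34 to 74.4 CPM (median 15.7). Burn mice 21, 23, 11 and 20 had 74.4, 56.5, 27.9 and 18.4 CPM, above every sham mouse, 4 burn mice had 10.2 to 15.7 CPM, within the range of the sham mice, and mouse 10 had 7.34 CPM, below it. The log2FC was 1.3 (SE 0.33), a 2.46-fold higher level in burn mice, with an unadjusted p of 0.000701 and an adjusted p of 0.458 (edgeR), which does not pass. Within batch 3, where 5 burn and 5 sham mice were sequenced together, 3 of 5 burn mice lay above the highest sham mouse (12.7 CPM), and the log2FC was 1.66 (SE 0.40; adjusted p = 0.47, edgeR). Without mouse 21 it was 0.98, and without mouse 23 it was 1.11. With no filter on low counts the adjusted p was 0.0367 (edgeR) and Erbb4 was called. Over 24 alternatives the sign held in 24, and the adjusted p ran from 0.0367 to 0.735.

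**Figure D5:**
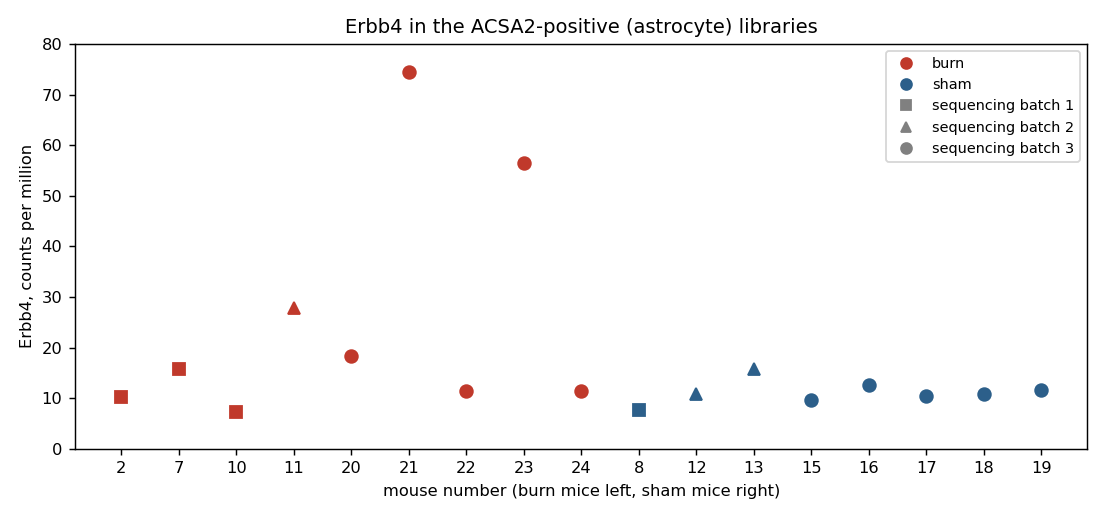
Erbb4 in CPM (y axis) in each astrocyte library by mouse (x axis), burn mice in red and sham mice in blue, with the shape of the point giving the sequencing batch. Mice 21 and 23, both burn mice of batch 3, stand at 74.4 and 56.5 CPM, and the 8 sham mice lie between 7.63 and 15.8 CPM.

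Markers of other cells were read beside this. All 7 endothelial genes were at an unadjusted p under 0.05 and higher in the burn astrocyte libraries, with a median log2FC of 0.58 against 0.05 over all genes, and none was called. Their summed level was 490 to 1490 CPM in burn mice (median 743) and 153 to 855 CPM in sham mice (median 598). In the libraries of mice 21, 23, 11 and 20 it was 918, 824, 726 and 490 CPM, within the range of the sham mice but for mouse 21. The 6 oligodendrocyte precursor genes summed to 85.3 to 121 CPM in burn mice and 79.5 to 145 CPM in sham mice, and the 9 inhibitory neuron genes to 7.46, 7.56, 5.54 and 4.57 CPM in mice 21, 23, 11 and 20 against 1.55 to 19.5 CPM in sham mice, with 7 of 9 lower in burn mice, 1 of them at an unadjusted p under 0.05 (median log2FC -0.47). All 5 border macrophage or monocyte genes tested were higher in burn mice, 2 of them at an unadjusted p under 0.05 (median log2FC 3.28), with summed levels of 0 to 4.06 CPM in burn and 0 to 0.858 CPM in sham mice. Of 9 astrocyte genes 7 were lower, 1 of them at that p (median -0.12), and of 8 microglia genes 6 were lower (median -0.12). The other neuron lists had medians above 0. Of 8 genes of all neurons 6 were higher (median 0.30) and of 7 excitatory neuron genes 4 (median 0.21), 0 of them at that p. Of 8 oligodendrocyte genes 6 were higher, 1 of them at that p (median 0.13), and of 6 mural cell genes 4 (median 0.26). The part of these cells in the level of Erbb4 was not tested.

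In the double-positive libraries the 4 receptors were higher in 1 burn mouse, mouse 10, than in any other: Egfr was at 28.2, Erbb2 at 5.13, Erbb3 at 7.69 and Erbb4 at 4.66 CPM. Nrg2 was also highest in that mouse (0.693 CPM), whereas Nrg1 (0.252 CPM) and Nrg3 (0.63 CPM) were highest in sham mouse 18 (2.1 and 1.8 CPM). The library of mouse 10 held 149 CPM of the oligodendrocyte precursor genes and 666 CPM of the endothelial genes, against 5.79 to 45.4 CPM and 62.0 to 341 CPM in the other double-positive libraries. Without it, the mean of the double-positive libraries was 6.45 CPM for Egfr, 0.23 CPM for Erbb3 and 0.375 CPM for Erbb4. The part of cells of other types in these values was not tested. In burn mice all 9 astrocyte genes (median log2FC 0.34, 1 at an unadjusted p under 0.05) and all 6 oligodendrocyte precursor genes (median 0.55, 0 at that p) were higher than in sham mice. Beside these, Egfr had a log2FC of 0.29 (SE 0.33; adjusted p = 0.98, edgeR) and Erbb3 of -1.17 (SE 1.21). The means of Erbb3 ran the other way, 1.03 CPM in burn and 0.269 CPM in sham mice, and its log2FC was 1.92 with no batch term, 0.14 without sham mouse 15 and -2.6 without burn mouse 21. Mouse 10 was sequenced in batch 1, which held 3 burn mice and no sham mouse of this population. The values of these 3 mice are taken up by the batch term, so the log2FC rests on the burn mice of batches 2 and 3. The log2FC of Egfr was 0.70 with no batch term, and 0.14 to 0.49 across fits that each omitted 1 mouse.

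In the microglia libraries the 8 burn mice had Egfr at 2.43 ± 1.57 CPM and the 7 sham mice at 2.5 ± 1.99 CPM, a log2FC of -0.12 (SE 0.46). Erbb2 had counts in 1 of 8 burn mice and 4 of 7 sham mice, and its log2FC of -2.64 had an SE of 1.6 (adjusted p = 0.789, edgeR). It ran from -5.57, without burn mouse 22, the burn mouse with counts, to -1.89, without sham mouse 18. In the burn microglia libraries 8 of 9 astrocyte genes (median log2FC -0.58, 2 at an unadjusted p under 0.05) and 6 of 7 endothelial genes (median -0.82, 2 at that p) were also lower, against a median of 0.00 over all genes, and their part in the level of Erbb2 was not tested. Nrg3 lay on the other side, with counts in 5 of 8 burn mice and 1 of 7 sham mice and a log2FC of 3.3 (SE 1.93; adjusted p = 0.763, edgeR). It was 5.91 (SE 2.15; adjusted p = 0.607, edgeR) in batch 3 alone, and ran from 2.46 to 6.27 across fits that each omitted 1 mouse. DESeq2 gave an adjusted p of 0.982. Batch 2 held a single microglia library, that of sham mouse 13, so its counts are taken up by the batch term.

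Nrg3 in the astrocyte libraries stood far above the rest in 1 library. Sham mouse 13 had 5.77 CPM, whereas the other 7 sham mice had at most 0.565 CPM and the 9 burn mice at most 0.909 CPM. The summed level of 7 excitatory neuron genes was 1580 CPM in that library and 15.9 to 132 CPM in the other sham libraries. The log2FC was -0.82 (SE 1.36) with other size factors and -2.35 (SE 1.38) with no batch term. It ran from -2.0 to 0.09 across 17 fits that each omitted 1 mouse, and its sign turned in 1 of them. The part of neuronal RNA in the level of Nrg3 was not tested.

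Of the 57 other genes of the pathway, none was called in any population. In the astrocyte libraries 55 were tested, and 4 were higher and 1 lower at an unadjusted p under 0.05 (over all genes, 7.23% were higher and 3.46% lower), with a median log2FC of -0.04 against 0.05 over all genes. The 2 with the smallest p were Lrig1 (397.5 ± 120 CPM in burn and 327 ± 45.4 CPM in sham mice; log2FC 0.32, SE 0.14) and Lrig3, a related gene (log2FC 0.43, SE 0.19), each with an adjusted p of 0.458 (edgeR). In the microglia libraries 55 were tested, and 2 were higher and 3 lower at an unadjusted p under 0.05 (over all genes, 4.23% were higher and 3.58% lower), with a median of -0.03 against 0.00 over all genes. Hbegf was the first of these, at 18.3 to 51.0 CPM (median 20.9) in burn mice and 11.8 to 56.2 CPM (median 34.1) in sham mice, and the groups overlapped. Its log2FC was -0.68 (SE 0.16; adjusted p = 0.639, edgeR) with batch as a covariate, against -0.33 (SE 0.26) without it and -0.71 (SE 0.14) within batch 3. DESeq2 gave an adjusted p of 0.0378, but the fold was below the minimum for a call. All 6 border macrophage or monocyte genes were higher in the burn microglia libraries, 2 of them at an unadjusted p under 0.05 (median log2FC 0.44), and their part in the level of Hbegf was not tested. The second was the adaptor Shc2, at 0.0562 ± 0.112 CPM in burn and 0.185 ± 0.233 CPM in sham mice, near the level of no counts.

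In the CaMKII positive libraries 56 of the 57 were tested, and 1 was higher and 0 lower at an unadjusted p under 0.05 (over all genes, 2.99% were higher and 0.911% lower), with a median of 0.03 against 0.02 over all genes. This was Dusp6 (236 ± 41.9 CPM in 4 burn and 190.1 ± 30.3 CPM in 6 sham mice; log2FC 0.36, SE 0.16; adjusted p = 1.0, edgeR), followed by Pik3r1 (log2FC 0.35, SE 0.20). In the same libraries all 8 microglia genes were higher in burn mice, 1 of them at an unadjusted p under 0.05 (median log2FC 0.69), with a median summed level of 1180 CPM in burn and 737 CPM in sham mice and overlapping ranges. All 6 oligodendrocyte precursor genes (median 0.57, 2 at that p) and the 4 red blood cell genes tested (3 at that p) were also higher. All 6 mural cell genes (median -0.51, 3 at that p) and all 8 oligodendrocyte genes (median -0.41, 0 at that p) were lower. So were 7 of 8 genes of all neurons (median -0.30), 6 of 9 inhibitory neuron genes (-0.27) and 6 of 7 endothelial genes (-0.16), 0 at that p. Higher were 5 of 7 excitatory neuron genes (0.18), 7 of 9 astrocyte genes (0.20) and 5 of 6 border macrophage or monocyte genes (1.05), 0 at that p. Their part in the values of Erbb3 and Nrg1 in these libraries was not tested. Dusp6 was at 773 CPM in the microglia libraries against 209 CPM in the CaMKII positive libraries, and the part of microglial RNA in its difference was not tested. In the double-positive libraries 54 were tested, and 0 were higher and 2 lower at an unadjusted p under 0.05 (over all genes, 3.48% were higher and 3.53% lower), with a median of -0.03 against 0.00 over all genes. The smallest p was that of the kinase Map2k2 (log2FC -0.17, SE 0.08; adjusted p = 0.708, edgeR), whose log2FC was 0.24 with all deposited libraries.

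The burn effect was also compared between populations of the same tissue. The difference was called for no member in 16 tests. Between double-positive and CaMKII positive libraries, 3 of 30693 genes were called (0.00977%; Tnfaip8l2, 6030468B19Rik and ENSMUSG00000120903, which had no symbol), and between microglia and astrocytes 1 of 30983 (0.00323%; Tmem200c). These 4 genes were named after their values were seen. None was called with the mouse as a block. At an unadjusted p under 0.05, 6.01% of genes and 0 of 8 members passed between double-positive and CaMKII positive libraries, and 8.67% of genes and 3 of 8 members between microglia and astrocytes. The difference, microglia minus astrocytes, was -3.04 (SE 0.86; adjusted p = 0.242, edgeR) for Erbb2 and -2.4 (SE 0.77; adjusted p = 0.313, edgeR) for Erbb4 on the log2 scale, and with the mouse as a block -2.88 and -2.1 (adjusted p = 1.0, edgeR, for each). The microglia side of both rests on few counts. In the same comparison all 7 endothelial genes were lower, 6 of them at an unadjusted p under 0.05 (median -1.37), as were 8 of 9 astrocyte genes, 3 of them at that p (median -0.54), against a median of -0.04 over all genes. Their part in these differences was not tested. The third was Nrg4.

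The genes whose values ran most like a member from library to library were found by the mean Pearson r of log2(CPM + 0.1), after removing batch and treatment within each population. For Egfr, over 58 libraries of 4 populations, these were Pfkm (mean r = 0.715), Ptprz1 (0.681) and Ncan (0.648). For Erbb2, over 43 libraries of 3 populations, they were Sp3 (0.706), Gm6474 (0.65) and Gnai3 (0.644). Over the 27 CaMKII positive and astrocyte libraries, the most like Erbb3 were Cep83 (0.783), Sytl2 (0.758) and Ankrd66 (0.758), and the most like Erbb4 were Atrn (0.754), Gpr137b (0.748) and Gjc3 (0.73). For Nrg1 they were Mmp24 (0.806), Nckap5 (0.759) and Depdc7 (0.756), and for Nrg2 Rbfa (0.707), Mrnip (0.706) and Plxna3 (0.704). For Nrg3, over 10 CaMKII positive libraries alone, they were Rai2 (0.986), Phf11a (0.973) and 2810402E24Rik (0.968). These are the highest of 12391 to 17197 genes over few libraries, and genes of the same library share its depth and cell makeup.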

How the data were processed

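The authors trimmed the reads with fastp, aligned them with STAR (GRCm39, with mm10 also named in the submitters' processing notes) and deposited a table of raw counts per gene for each population, with no normalisation. Whether strand was used in counting is not given in the sources used here. Their normalised tables were not used. All sample columns of the count tables were matched by header number, and 0 were left unused. Burn and sham were compared with edgeR 4.0.16 (glmQLFit and glmQLFTest, TMM) in R 4.3.3, with batch and treatment in the design, after dropping genes whose summed count was under 10, and with Benjamini-Hochberg adjustment over all genes. Genes were called at an adjusted p up to 0.05 where the log2FC was 1 or more in size. The standard error is the absolute log2FC over the square root of F. DESeq2 1.42.0 was an alternative, with other size factors, filters, no batch term, batch 3 alone, all deposited libraries and each mouse left out.

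CPM divides counts by the library total. Exon lengths came from GENCODE M21 (GRCm38), another build than the counts, so no coordinates are given. Nrg1 shares 4.66% and Nrg4 8.97% of its exon bases with genes on the other strand there, and Egfr holds a run of 63 bases also found in other genes. Members and lists were chosen with earlier results of these data known. The named pathway genes were, per population, the 2 with the smallest p, and for levels all other EGF family ligands and the 2 highest of each other list, of which some are not reported here. The genes most like a member were the 3 with the highest mean r, over populations where the member had at least 1 CPM, after adding 0.1 CPM. Mice are separate animals, and the same mouse number marks the same animal in every population. Deviations of same-numbered libraries correlated at 0.0122 to 0.0682 (double-positive and CaMKII positive, 8 mice) and -0.029 to 0.0772 (microglia and astrocytes, 13 mice). The test was tried on simulated counts with known changes and no batch effect. Of 100 genes changed 4-fold, 52 were called in the CaMKII positive, 87 in the double-positive, 83 in the astrocyte and 84 in the microglia design. Of 100 changed 2-fold, 10, 30, 38 and 35 were called, and of the unchanged genes 4, 1, 4 and 8. The changed genes were drawn from those above a minimum mean count. Most members in the microglia libraries and the neuregulins in the double-positive libraries lay below it, so these shares do not apply to them.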

Additional observations from a re-analysis of the deposited data

Results flagged for a closer look

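Of 60 groups of member values, 17 held a sample far from the others, by its gap to the next value over the range of the group. A chance rate of about 1 in 20 cannot be set against this number. Some flags were few counts among libraries with none, such as Erbb2 in microglia of burn mouse 22 (6 counts). The groups also shared libraries, since burn mouse 10 gave the double-positive flags of Egfr, Erbb2, Erbb3 and Erbb4. No excess over chance is read from it. No explanation was weighed.

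In the double-positive libraries, burn mouse 10 stood apart for Egfr (28.2 CPM, the next 10.2), Erbb2 (5.13, the next 1.95), Erbb3 (7.69, the next 0.457) and Erbb4 (4.66, the next 0.592), and sham mouse 18 for Nrg3 (1.8, the next 0.67). In the astrocyte libraries, sham mouse 13 (5.77 CPM, the next 0.565) and burn mouse 7 (0.909, the next 0.254) stood apart for Nrg3, and burn mouse 23 (6.1, the next 3.12) and sham mouse 19 (6.07, the next 2.73) for Nrg2. In the microglia libraries, this held for Nrg1 in burn mouse 2 (2.79 CPM, the next 0.872) and sham mouse 16 (1.91, the next 0.182), for Nrg3 in burn mouse 23 (1.17, the next 0.389) and sham mouse 8 (0.31, all others 0), for Nrg4 in sham mouse 8 (0.201, all others 0) and for Erbb2 in burn mouse 22 (0.321, all others 0). In the CaMKII positive libraries it held for Nrg4 in burn mouse 2 (0.178 CPM, all others 0) and sham mouse 16 (1.28, all others 0).

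Among the libraries left out, the microglia library of burn mouse 3 held Nrg1 at 6.77 CPM (346 counts). Nrg1 was at most 1.91 CPM in sham mice and 2.79 CPM in the burn mice used. Nrg4 was at 2.17 CPM (111 counts) in mouse 3, against at most 0.201 CPM in sham mice and 0.0758 CPM in the burn mice used. The CaMKII positive library of mouse 3 was below every sham mouse for Erbb3 (3.5 CPM, the lowest sham 11.9), Erbb4 (3.63 CPM, the lowest sham 9.05) and Nrg3 (0.157 CPM, the lowest sham 0.668). The lowest burn mice used were at 8.92 CPM for Erbb3, 5.56 CPM for Erbb4 and 0 CPM for Nrg3, so for Nrg3 mouse 3 lay within the burn range.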

How the results depend on the processing

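Beside the value as reported, no member was called in any population under any alternative but 1: Erbb4 in astrocytes was called with no filter on low counts (1 member; log2FC 1.29). The number of genes called moved from 0 with DESeq2 to 3 in CaMKII positive, 2 in double-positive, 27 in astrocyte and 80 in microglia libraries, with no filter on low counts to 14 in double-positive and 4 in astrocyte libraries, and with all deposited libraries to 136 in double-positive libraries. For the difference between double-positive and CaMKII positive libraries it moved from 3 to 10 with all deposited libraries and 0 in batch 3 alone, and between microglia and astrocytes from 1 to 2 and 3. With the replicate block, which pairs libraries of a mouse, it was 0 in both, and no other call changed. The mean level of Nrg4 in microglia was 0.153 CPM with all deposited libraries. The causes were not tested. Signs turned as follows. In batch 3 alone, Egfr was at -0.0867 and Erbb4 at 0.23 in CaMKII positive libraries, and Egfr at 0.14 and Nrg2 at 0.37 in microglia. With no batch term, Erbb3 was at 1.92 in double-positive libraries, and Nrg1 at 0.71 and Nrg2 at 0.16 in microglia. With all deposited libraries, Erbb3 was at 0.0279, Nrg2 at 0.45 and Nrg4 at 0.81 in microglia, and Map2k2 at 0.24 in double-positive libraries. The difference between double-positive and CaMKII positive libraries turned for Nrg3 (0.15 with all deposited libraries, 0.24 with the replicate block), and that between microglia and astrocytes for Egfr (0.0483 in batch 3 alone), Nrg1 (0.00554 with all deposited libraries) and Nrg2 (0.0731 with all deposited libraries, 0.11 in batch 3 alone, 0.11 with the replicate block).

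In fits that each omitted 1 mouse, the log2FC ran in CaMKII positive libraries from -0.09 to 0.19 for Egfr, -0.41 to 0.22 for Erbb4 and -6.04 to 1.76 for Nrg4. In double-positive libraries it ran from -0.0643 to 1.13 for Erbb2 and -2.6 to 0.14 for Erbb3. In astrocytes it ran from -0.0155 to 0.0787 for Egfr, -0.0375 to 0.0554 for Erbb2, -0.346 to 0.0945 for Nrg1 and -2.0 to 0.0915 for Nrg3. In microglia it ran from -0.31 to 0.2 for Egfr, -0.403 to 0.212 for Erbb3, -4.55 to 3.69 for Nrg1 and -0.36 to 0.61 for Nrg2. Levels without double-positive burn mouse 10 and without astrocyte sham mouse 13, and shares of the astrocyte level with each library omitted, were added after seeing the data. Members with few counts cannot show changes of several-fold at this depth.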
